A study of Mus musculus with 6 samples.

Results

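The listed genes that flank Elavl4 on mouse chromosome 4 were examined by position. The data were 2 tables of array probes called lower or higher in the striatum of HuD-KO mice, and the members were the 31 listed probes, from 30 genes, whose transcripts start, by their lower coordinate, between 90 and 130 Mb on chromosome 4, with Elavl4 and its relative Elavl2 left out. Both tables together hold 1088 probes from 1031 gene symbols. The members were selected on the same measured values that are described here, because a probe entered the tables through its difference between these arrays, so directions, sizes and counts of the members are a description and carry no test.

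HuD is the protein of Elavl4. The HuD-KO group was striatum of 3 adult mice lacking HuD (Elavl4-/-), and the WT group was striatum of 3 adult wild type littermates. Each array held RNA of 1 sample labeled with Cy3, after ribosomal RNA was removed. No treatment or transgene is named for either group, and the labels give neither strain, sex nor exact age. The design names 3 mice in each group, and each array was taken as 1 of them, although the labels tie no array to an animal.

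HuD is a neuronal RNA-binding protein that binds AU-rich elements in messenger RNAs and is known for holding such transcripts stable during neuronal differentiation and plasticity. A knockout made in embryonic stem cells of another strain keeps, through linkage, a stretch of that strain's chromosome around the targeted gene, because neighboring genes are inherited with it more often than distant ones. Genes beside a knocked out locus can therefore differ between genotypes through their own sequence as well as through the loss of the protein. Whether these mice carry such a segment was not measured, and in this design its part and that of the loss of HuD cannot be told apart. In bulk tissue, fewer cells of a type and less RNA per cell cannot be told apart either.

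Elavl4 itself was measured first. Its log2 levels, relative to the 75th percentile of each array, were -5.57, -6.07 and -6.13 in the HuD-KO arrays and -1.09, -1.36 and -0.70 in the WT arrays. The HuD-KO signal was not well above background on any array, and Elavl4 was at least 15.5-fold lower. This bound, like those below, depends on the background correction. The 3 arrays of the HuD-KO group also carried higher signal than every WT array for the listed Y-linked genes. The log2 difference was 5.49 for Uty and 3.62 for Eif2s3y, and Kdm5d and Ddx3y, not well above background on any WT array, were at least 10.4-fold and 9.74-fold higher. Sex, as read from the Y-linked genes, thus moved with genotype and its part in any member's difference cannot be told apart. Xist, the other gene on the list of sex-chromosome genes, had no listed probe. All 3 HuD-KO arrays and WT replicate 1 lay in row 1 of the slide, and WT replicates 2 and 3 lay in row 2.

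The array reads each gene through a probe of 60 bases. The probes of 5 members are printed below because they read genes on either side of Elavl4, 4 lower and 1 higher. Capitals mark ATTTA, the core of an AU-rich element, which only the Nasp probe holds among these 5.
Prkaa2 probe: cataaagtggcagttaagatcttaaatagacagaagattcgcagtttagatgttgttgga
Usp24 probe: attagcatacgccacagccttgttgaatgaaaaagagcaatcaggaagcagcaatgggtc
Eps15 probe: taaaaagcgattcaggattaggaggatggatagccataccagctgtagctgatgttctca
Ccdc17 probe: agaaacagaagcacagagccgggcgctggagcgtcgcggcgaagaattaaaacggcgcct
Nasp probe: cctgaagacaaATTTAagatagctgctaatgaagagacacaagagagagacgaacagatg
ATTTA stood in the probes of 4 of the 31 members (12.9%), which were Tceanc2, Nasp, Dnali1 and CK137956, and in 64 of all 1088 listed probes (5.88%). A probe covers only 60 bases of a transcript, so its letters say little of the rest of the RNA. The median GC content was 43.3% in the members' probes and 45% in all listed probes.

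The promoters of 3 members that border Elavl4 among the listed genes are shown next, from 250 bases before to 50 bases after the transcript start in RefSeq on GRCm38.p6. Capitals mark CCAAT, or ATTGG where it lies on the other strand, the letters that the trimeric factor NF-Y binds. One of its subunits is encoded by Nfyc, itself a member.
Eps15, chr4:109342806-109343105, plus strand: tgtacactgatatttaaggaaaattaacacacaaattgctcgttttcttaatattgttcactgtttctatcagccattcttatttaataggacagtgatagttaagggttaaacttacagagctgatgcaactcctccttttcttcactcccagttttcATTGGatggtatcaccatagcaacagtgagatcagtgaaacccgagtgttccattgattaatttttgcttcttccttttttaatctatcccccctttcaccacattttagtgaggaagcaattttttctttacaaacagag
4930522H14Rik, chr4:109531248-109531547, minus strand: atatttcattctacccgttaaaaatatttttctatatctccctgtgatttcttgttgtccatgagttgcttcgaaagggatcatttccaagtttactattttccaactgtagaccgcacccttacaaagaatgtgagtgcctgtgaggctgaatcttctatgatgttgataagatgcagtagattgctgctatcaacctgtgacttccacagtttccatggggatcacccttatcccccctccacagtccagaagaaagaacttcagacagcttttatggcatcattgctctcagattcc
Ccdc17, chr4:116596480-116596779, plus strand: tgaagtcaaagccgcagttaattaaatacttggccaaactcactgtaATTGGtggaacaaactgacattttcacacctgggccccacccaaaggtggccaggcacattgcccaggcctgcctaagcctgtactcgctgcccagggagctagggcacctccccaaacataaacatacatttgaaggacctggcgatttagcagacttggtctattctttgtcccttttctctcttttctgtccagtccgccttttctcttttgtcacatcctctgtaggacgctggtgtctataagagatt
A promoter at the listed transcript start was found for 26 member genes. CCAAT on either strand was present in 9 of them (34.6%) and in 37.4% of the 32851 promoters of the table. TATAAA on either strand was present in 4 of the 26 (15.4%) and in 13.6% of all promoters. The median number of CpG was 11 in the members' promoters and 7 in all promoters.

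Of the 31 members, 23 were listed lower and 8 higher, so that 74.2% were lower. All 23 and all 8 passed 2-fold in the listed direction in a fit over all tested probes, in which 4.63% of 47857 probes were over 2-fold lower and 1.77% over 2-fold higher. At an adjusted p under 0.05 (limma), 23 members were lower and 7 higher, beside 14.4% and 16% of all tested probes. The groups did not overlap for any member, as was so for 22.5% of all probes in the lower direction and 27.3% in the higher direction. Because the tables hold only probes that passed such limits, nothing about the members is read from these counts. With normexp background correction and an offset of 50, which draws dim signals together, 12 members were over 2-fold lower and 4 over 2-fold higher. With the slide row as a block, 3 lower members (Zyg11b, 4930522H14Rik and the Ccdc30 probe for NM_028698) and no higher one kept an adjusted p under 0.05, and the calls of the others were lost. Within row 1, where WT replicate 1 is the only control, all 31 members kept their direction, by 0.95 to 5.28 on the log2 scale in the lower direction and by 0.98 to 1.59 in the higher.

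The split by direction lay close to that of the rest of the listed probes. Elsewhere on chromosome 4, 40 of 58 listed probes (69.0%) were lower, and on the other chromosomes 726 of 995 (73.0%). The median log2 difference was -1.67 for the lower members and 1.21 for the higher members. The corresponding medians were -1.51 and 1.34 on the rest of chromosome 4 and -1.46 and 1.18 on the other chromosomes. The share of genes listed was also set against the rest of the genome. Among protein-coding genes in RefSeq, 7.54% of those starting in the window were listed, compared with 6.25% on the rest of chromosome 4 and 4.58% on the other chromosomes, with Elavl4 and Elavl2 left out. RefSeq places 58 protein-coding genes between Usp24 and Elavl4, where Tceanc2, Podn, Zyg11b, Eps15 and 4930522H14Rik were listed. It places 54 between Elavl4 and Ccdc17, with none listed. How evenly the array covers these genes was not tested.

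Ordered along the chromosome, the members were uneven in number and in direction. Elavl4 spans chr4:110203737-110286834 on GRCm38, and distances are given between lower coordinates. Of the members, 11 lay before it and 20 after it. The 6 members within 5 Mb were all lower and all before Elavl4, and no member lay within 5 Mb after it. Going on from there, 9 of 13 members between 5 and 10 Mb were lower, and 8 of 12 members beyond 10 Mb. The listed probes formed a run of 9 lower members through Elavl4, with Usp24, Tceanc2, Podn, Zyg11b, Eps15 and 4930522H14Rik before it and Ccdc17, Nasp and Gm1661 after it. The run was bordered by the higher members Prkaa2 and Ccdc24. It crosses a stretch of 6.31 Mb after Elavl4 without a listed gene, and 72.6% of all listed probes were lower.

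**Figure D1:**
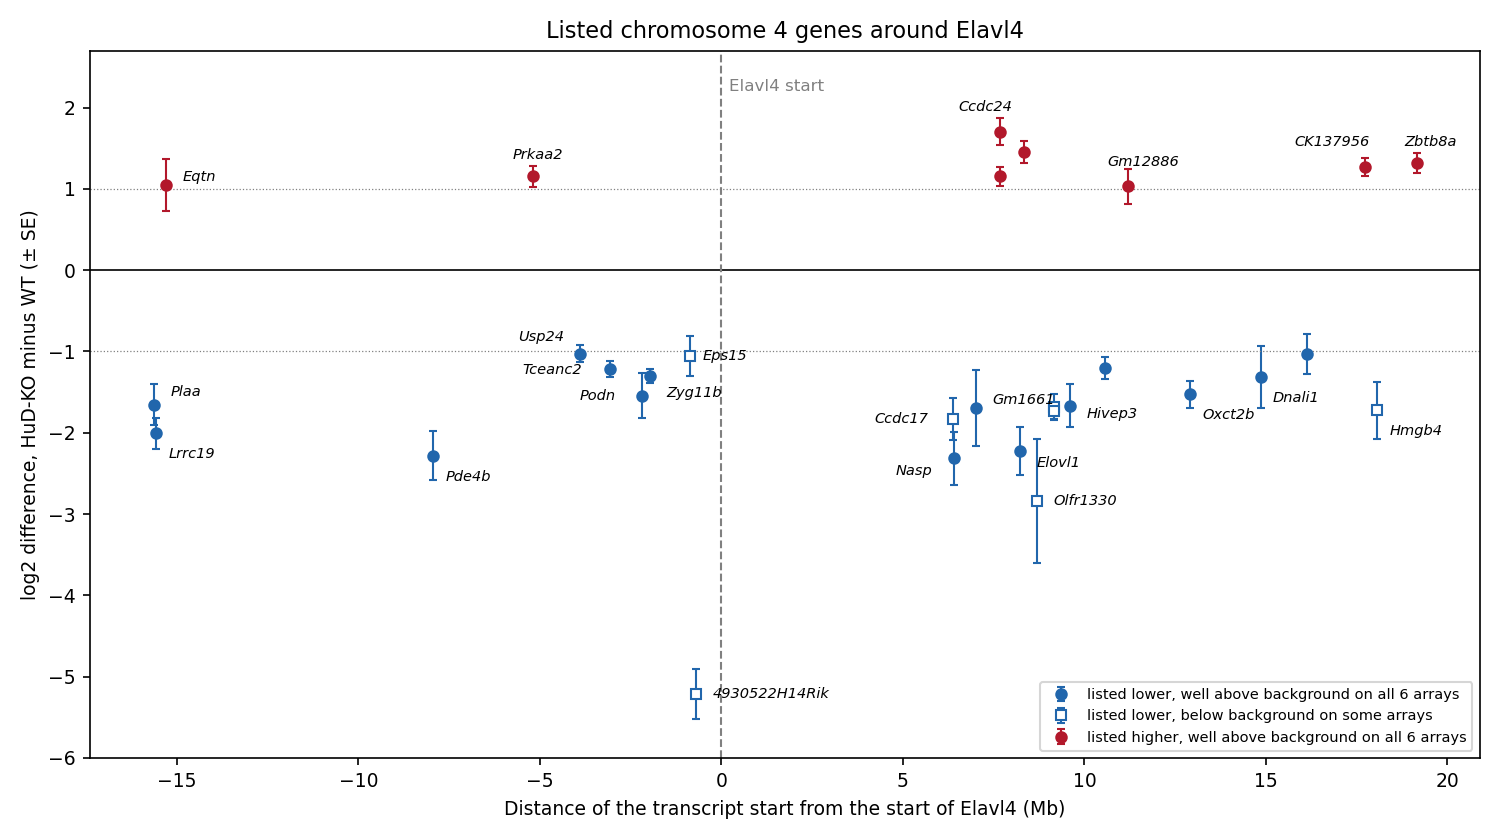
Log2 difference between HuD-KO and WT (y axis, mean of 3 arrays minus mean of 3 arrays, bars ± SE) of 30 of the 31 members against the distance of its transcript start from that of Elavl4 (x axis, Mb), with lower members in blue, higher ones in red and open squares for members below background on some HuD-KO arrays. The 6 members within 5 Mb all sit below 0, no member lies within 5 Mb after Elavl4, and all but 1 of the differences shown lie between -3 and 2.

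The closest genes were mostly not among the listed ones. Between 4930522H14Rik and Elavl4, a gap of 0.672 Mb, RefSeq places the 3 protein-coding genes Cdkn2c, Faf1 and Dmrta2. After Elavl4 the next listed gene was Ccdc17, 6.31 Mb away, and the 54 protein-coding genes between them, starting with Agbl4, Bend5, Spata6 and Slc5a9, have no listed probe. Levels of genes without a listed probe were not analysed here, since only the tables pair probes with genes. Of 12 named neighbors of Elavl4, Eps15 was the 1 with a listed probe.

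The size of the difference did not follow distance closely. Over the 31 members, the absolute log2 difference and the distance from Elavl4 had a Spearman rho of -0.09 and a Pearson r of -0.28, across genes that share the same 6 arrays, as a description. The median log2 difference was -1.67 for the 19 members within 10 Mb and -1.26 for the 12 members farther away. This order depended on the setting. It turned with normexp background correction, to -0.81 within 10 Mb and -0.94 beyond, and with a limit of 5 Mb, to -1.26 within and -1.53 beyond, and the filter on all 6 arrays brought the medians to -1.30 and -1.21. These medians depend on how many higher members a stretch holds, and the lower members alone had medians of -1.70 within 10 Mb and -1.42 beyond.

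**Figure D2:**
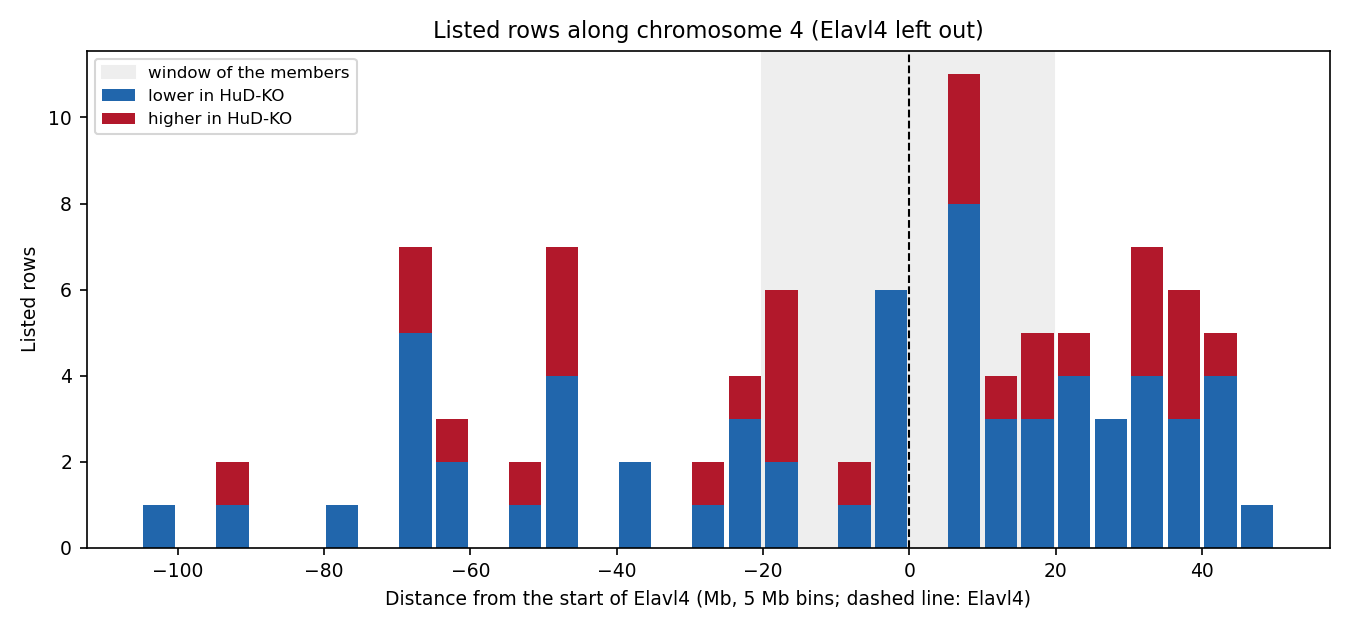
Number of listed probes (y axis) lower (blue) and higher (red) in HuD-KO mice in 5 Mb bins of distance from the start of Elavl4 (x axis, Mb) along chromosome 4, with the window of the members in grey and Elavl4 left out. The bin just before Elavl4 holds 6 lower probes, the bin just after holds none and the next holds 11, of which 8 are lower. The bin from -20 to -15 Mb holds 6 probes, including 3 higher probes of Elavl2, which is no member.

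The 2 nearest members lay on the proximal side. 4930522H14Rik, a little characterised gene at chr4:109505332-109531297, starts 0.698 Mb from Elavl4. Its log2 levels were -7.32, -7.19 and -7.47 in HuD-KO and -2.05, -1.53 and -2.77 in WT. The HuD-KO values were those given to the dimmest spots of each array and none was well above background, whereas all 3 WT values were. By the bound used here the gene was at least 7.39-fold lower, and the groups lay far apart. With normexp background correction the gene differed by -1.80 on the log2 scale, less than that bound. Its measured means were -7.33 ± 0.142 and -2.12 ± 0.626 (SD, n = 3 each). The array design lists another transcript that this probe matches.

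Eps15, an adaptor of clathrin-coated pits that binds ubiquitin and sorts receptors for endocytosis, starts 0.861 Mb away. The listed probe reads a short transcript, NM_001159964, at chr4:109343056-109387816, and does not stand for all of the gene's RNA. Its log2 levels were -5.02, -4.46 and -5.31 in HuD-KO and -3.70, -4.18 and -3.75 in WT, a difference of -1.05 ± 0.245 (SE). HuD-KO replicate 2 was the 1 HuD-KO array well above background and lay 0.28 below WT replicate 2, the closest the groups came.

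The other 4 members within 5 Mb were measured well above background on all arrays. Zyg11b, a substrate receptor of a cullin ubiquitin ligase that recognizes exposed glycine ends of proteins, had log2 levels of 1.92, 1.91 and 1.82 in HuD-KO and 3.16, 3.09 and 3.29 in WT. It was 2.46-fold lower with the smallest SE of any member, 0.088 on the log2 scale. Usp24, a deubiquitinase, read -1.11, -1.25 and -1.06 in HuD-KO and -0.12, 0.03 and -0.24 in WT. At -1.03 it was the lower member nearest to 2-fold, with Tekt2. Both genes separated the groups by much more than the spread inside either group.

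Tceanc2, which carries the N-terminal domain of an elongation factor family, had log2 levels of 0.64, 0.81 and 0.66 in HuD-KO and 1.92, 1.81 and 2.04 in WT, a difference of -1.22 ± 0.097 (SE). Podn, the matrix proteoglycan podocan, read -2.88, -2.55 and -2.27 in HuD-KO and -0.84, -0.65 and -1.57 in WT, a difference of -1.54 ± 0.276 (SE). WT replicate 3 was the lowest WT array for Podn and still lay above every HuD-KO array.

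With Plaa, 4 members handle ubiquitin or endocytic cargo, and all 4 were lower. Plaa, a ubiquitin-binding partner of the segregase p97 and the member nearest the proximal end of the window, had log2 levels of 0.89, 1.0 and 1.0 in HuD-KO and 2.65, 3.12 and 2.09 in WT. The HuD-KO arrays were nearly equal, with an SD of 0.067, whereas the WT arrays had an SD of 0.517. The difference was -1.66, or 3.15-fold lower. The grouping by role, here and below, was made with the values known, and 74.2% of all members were lower.

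**Figure D3:**
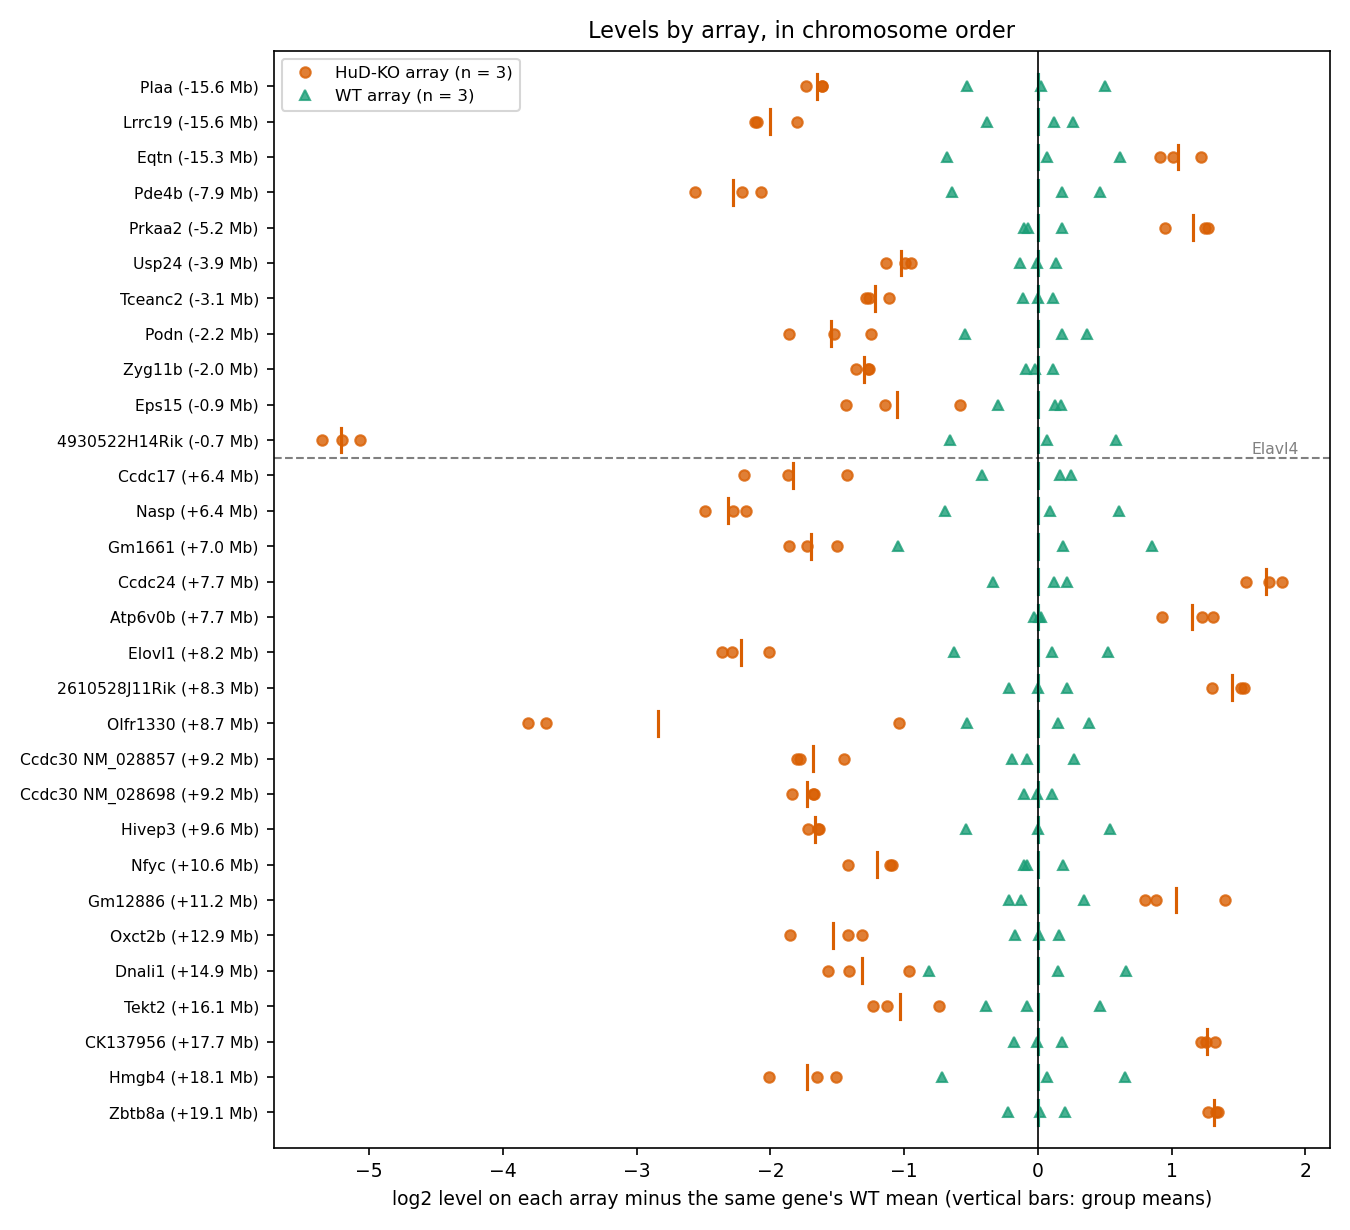
Log2 level on each array minus the WT mean of the same probe (x axis) for 30 of the 31 members in chromosome order (y axis, with the distance from Elavl4 in Mb), with circles for HuD-KO, triangles for WT and vertical bars for group means. Circles and triangles do not overlap for any member shown, the WT arrays are often more spread than the HuD-KO arrays, and Dnali1 shows the WT array closest to the HuD-KO values among the cilium genes.

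Members of signaling and of transport differed in direction. Pde4b, a phosphodiesterase that degrades cyclic AMP, is read through the transcript NM_001177983. Its log2 levels were -2.92, -2.42 and -2.56 in HuD-KO and -0.17, 0.12 and -0.99 in WT, or 4.86-fold lower. Prkaa2, a catalytic subunit of AMP-activated protein kinase, was higher, with -0.99, -1.31 and -1.01 in HuD-KO and -2.34, -2.08 and -2.36 in WT, a difference of 1.16 ± 0.130 (SE). The 2 genes are neighbors among the members, and 2.47 Mb lie between them.

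Atp6v0b, a subunit of the membrane sector of the proton pump that acidifies vesicles, was higher, with log2 levels of 2.98, 2.60 and 2.90 in HuD-KO and 1.64, 1.69 and 1.67 in WT. The WT arrays were nearly equal here. Its neighbor Ccdc24, 11.9 kb away on the same strand, read 0.92, 1.18 and 1.09 in HuD-KO and -0.52, -0.98 and -0.43 in WT. Both were thus higher in HuD-KO, by 2.23-fold and 3.26-fold. Both probes lay in a corner of the slide image where HuD-KO replicate 2 was dim. The probes of 6 lower members lay there too, which were Plaa, Usp24, Tceanc2, Hivep3, Dnali1 and Hmgb4. The part of that corner in the differences of all these members was not tested. On HuD-KO replicate 2, Ccdc24, Plaa, Tceanc2, Dnali1 and Hmgb4 read highest of the 3 HuD-KO arrays, and Atp6v0b, Usp24 and Hivep3 read lowest.

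Of 6 members that act in transcription or chromatin, 5 were lower, beside 23 of all 31 members. Nasp, a histone chaperone that stores and hands over histone H3 and H1, had log2 levels of -1.44, -1.14 and -1.23 in HuD-KO and 1.13, 1.65 and 0.35 in WT, or 4.98-fold lower. Ccdc17, a coiled-coil gene, ends 0.785 kb from the end of Nasp, on the opposite strand. Its levels were -5.09, -5.86 and -5.53 in HuD-KO, none well above background, and -3.41, -4.08 and -3.50 in WT. By the bound it was at least 2.53-fold lower, and with normexp background correction it differed by -0.62 on the log2 scale.

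Hivep3, a large zinc finger protein that binds enhancer motifs, had log2 levels of -4.06, -4.14 and -4.07 in HuD-KO and -2.42, -1.89 and -2.97 in WT, a difference of -1.67 ± 0.261 (SE). Nfyc, the subunit of NF-Y named above, read -1.08, -0.75 and -0.76 in HuD-KO and 0.26, 0.52 and 0.24 in WT, a difference of -1.21. Its probe also matches another transcript in the array design. The groups were clearly apart for both genes, with WT replicate 2 the highest array each time.

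Hmgb4, an HMG-box gene known from testis, was not well above background on any HuD-KO array. By the bound it was at least 2.17-fold lower, with WT levels of -4.60, -3.23 and -3.82 and HuD-KO levels of -5.54, -5.39 and -5.90. With normexp background correction it differed by -0.61 on the log2 scale. Zbtb8a, a zinc finger gene of the BTB family and the last member of the window, was the 1 higher gene of this role. It read 2.19, 2.14 and 2.21 in HuD-KO and 1.06, 0.88 and 0.64 in WT, so every HuD-KO array was above every WT array by more than 1 on the log2 scale.

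Both metabolic members were lower. Elovl1, which elongates very long chain fatty acids, had log2 levels of 3.97, 4.32 and 4.04 in HuD-KO and 6.43, 6.85 and 5.70 in WT, or 4.66-fold lower. Very long chain fatty acids are abundant in myelin, and the 5 listed probes of Mbp, a main protein of myelin, were lower as well, by up to 1.35 on the log2 scale. The WT order differed, since WT replicate 3 was the lowest WT array for Elovl1 and the highest for all 5 Mbp probes, and the part of oligodendrocytes in the Elovl1 difference was not tested. Oxct2b, a ketone body enzyme known from sperm, differed by -1.53 ± 0.168 (SE).

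The cell surface and matrix members Lrrc19, Podn and Olfr1330 were all lower. Lrrc19, a leucine-rich repeat membrane protein, read 2.69, 2.98 and 2.67 in HuD-KO and 4.91, 5.06 and 4.41 in WT, or 4.02-fold lower. It lies 33.4 kb from Plaa, which was lower too.

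Olfr1330, an odorant receptor gene with a single coding exon, had log2 levels of -7.32, -7.19 and -4.54 in HuD-KO and -3.36, -3.13 and -4.04 in WT. HuD-KO replicate 3 alone was well above background and lay close to WT replicate 3, while the other two HuD-KO arrays held the value given to the dimmest spots. The difference of -2.84 had the largest SE of any member, 0.766, and rests mainly on those 2 arrays.

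Genes of cilia and sperm were split. Dnali1, a light intermediate chain of axonemal dynein, had log2 levels of 1.30, 1.75 and 1.14 in HuD-KO and 2.86, 1.90 and 3.37 in WT. Tekt2, a tektin of the axoneme, read -0.13, 0.26 and -0.23 in HuD-KO and 0.92, 0.61 and 1.46 in WT. In both genes HuD-KO replicate 2 was the highest HuD-KO array and WT replicate 2 the lowest WT array, and for Dnali1 those 2 arrays differed by only 0.15. Eqtn, a membrane protein of the sperm acrosome, was higher, at -2.99, -2.68 and -2.89 in HuD-KO and -3.83, -3.29 and -4.58 in WT, and was the 1 member with an adjusted p over 0.05, at 0.053 (limma).

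Motile cilia in the brain belong to ependyma and related cells. The listed markers of choroid plexus and ependyma were lower, as were Dnali1, Tekt2 and 72.6% of all listed probes. Of 10 such genes, 4 had listed probes (Kcnj13, Clic6, F5 and Enpp2), and their 5 probes were all lower in HuD-KO, by 1.16 to 3.97 on the log2 scale. None of the 5 was absent, and none was listed higher. For 4 of the 5, HuD-KO replicate 2 was the highest HuD-KO array, WT replicate 3 the highest and WT replicate 2 the lowest WT array, as for the 2 cilium members. That order of the WT arrays was found in 31.9% of all lower listed probes and in 29.6% of all tested probes. The summed level of the list could not be given, since 6 of its genes, among them Foxj1, have no listed probe. The part of the list in the result was not tested.

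**Figure D4:**
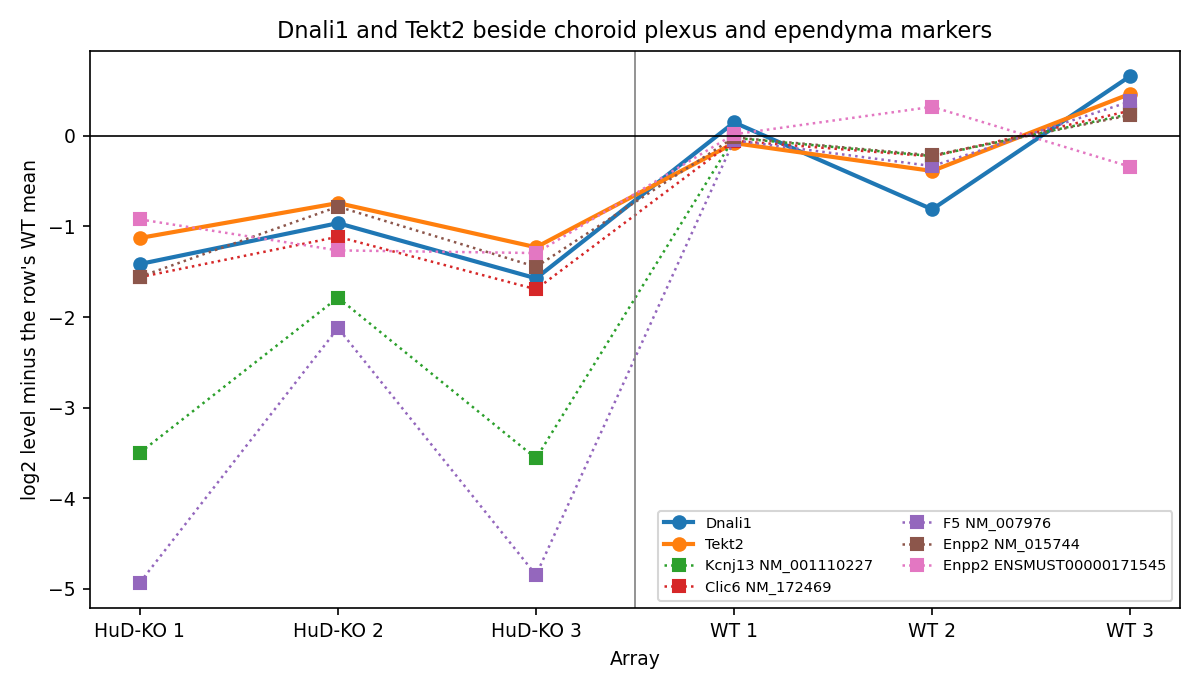
Log2 level minus the WT mean of the same probe (y axis) on each of the 6 arrays (x axis) for the members Dnali1 and Tekt2 (circles, solid lines) and the 5 listed probes of choroid plexus and ependyma markers (squares, dotted lines). Lines join values of 1 probe. Apart from the second Enpp2 probe, all share the rise at HuD-KO replicate 2 and the dip at WT replicate 2.

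Other markers with listed probes were few. Of 5 cortical neuron markers, Neurod6 was higher by 1.69 on the log2 scale, and Tbr1, Slc17a7 and Cux2 had no listed probe. Of 4 hypothalamic markers, the hormone gene Oxt was higher by 2.94, and Avp, Hcrt and Pmch had no listed probe. No marker of the lists for striatal projection neurons, astrocytes, microglia or endothelium had a listed probe, so the labeled tissue could not be checked through its own neuron markers. Whether the dissected tissue differed between the groups was not tested.

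Ccdc30, a coiled-coil gene, was listed through 2 probes, and both were lower. The probe for NM_028857 was not well above background on any HuD-KO array and by the bound was at least 1.91-fold lower. With normexp background correction that probe differed by -0.58 on the log2 scale. The probe for NM_028698 read -5.09, -5.25 and -5.09 in HuD-KO, of which 1 array was well above background, and -3.42, -3.31 and -3.52 in WT. Since most HuD-KO signals of both probes were not measured, the sizes are not compared.

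Of the 5 little characterised members, 2 were lower and 3 higher. Besides 4930522H14Rik, Gm1661 was lower, with log2 levels of -4.74, -4.52 and -4.87 in HuD-KO and -2.82, -4.06 and -2.16 in WT. WT replicate 2 was much nearer to the HuD-KO arrays than the other WT arrays, and the difference of -1.70 had an SE of 0.462. The higher members 2610528J11Rik, CK137956 and Gm12886 differed by 1.45, 1.27 and 1.03. Gm12886 was the higher member nearest to 2-fold, and 2610528J11Rik lies 94.4 kb from the lower member Elovl1.

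Of 29 pairs of adjacent member genes, 16 had the same direction. Of the 4 pairs within 100 kb, 3 shared a direction, which were Plaa with Lrrc19, Ccdc17 with Nasp and Ccdc24 with Atp6v0b. The exception was Elovl1 with 2610528J11Rik. With 23 of 31 members lower, many pairs share a direction by that split alone, so nothing about neighbors is read from these counts. The lists of other pathway genes gave no further members. These lists were not limited to chromosome 4 and counted a gene family as 1 entry. They held 1 listed gene each for transcription factors (Hivep3, of 18), neuronal signaling and synapse (Pde4b, of 17), lipid enzymes (Elovl1, of 9) and cell cycle and centriole (Nasp, of 9), all lower, and none of 7 cytokine receptors and kinases.

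WT arrays varied more than HuD-KO arrays for most members, as for most listed probes. The WT SD was larger than the HuD-KO SD in 22 of 31 members, or 71.0%, beside 68.7% of all lower and 64.9% of all higher listed probes and 60.9% of all tested probes. In 13 of the 23 lower members (56.5%) WT replicate 2 was the highest and WT replicate 3 the lowest WT array, among them Plaa, Pde4b, Podn, 4930522H14Rik, Nasp and Elovl1. This order was found in 46.6% of all lower listed probes and in 26.4% of all tested probes. In 6 lower members the order was the opposite, including Dnali1, Tekt2 and Gm1661. WT replicates 2 and 3 shared slide row 2, so this contrast lay within a row.

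The listed genes on either side of the window's edges shared a direction at the proximal edge and not at the distal edge. Ifna2, the last listed gene before the window, starts at 88.7 Mb and was lower by 1.96 on the log2 scale. Plaa, the first member, starts at 94.6 Mb and was lower with a difference of -1.66. Zbtb8a, the last member, starts at 129.4 Mb and was higher with a difference of 1.32. Phactr4, the first listed gene after the window, starts at 132.4 Mb and was lower with a difference of -2.06.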

How the data were processed

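Striatal RNA of 3 HuD-KO and 3 WT mice was hybridized to 1-color Agilent arrays of mouse lncRNA and mRNA probes. Per the file headers, the deposited scanner files hold Feature Extraction 11.0.1.1 intensity values, background subtracted and not normalized between arrays. The deposited tables hold listed probes with raw intensity and the authors' log2 normalized values. They also hold p-values, FDR and fold changes of the authors' own comparison, which were not used. The raw columns equaled the processed signal with a floor of 5. The tables name no genome build, the array header names mm9, and 99.0% of 1023 matched transcripts lay within 1 kb of the RefSeq gene of GRCm38.p6.

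Log2 processed signal minus the 75th percentile of each array was computed. Control spots and 65 of 60915 target probes marked as outliers were left out. The 75th percentile was 446 to 615 and 77.8 to 82.0% of target spots were well above background, and 6 arrays limit the precision. A probe was tested when well above background on all 3 arrays of a group, with limma 3.58.1 in R 4.3.3 (lmFit, eBayes, two-sided, Benjamini-Hochberg over 47857 probes). The methods' unpaired t-test and other settings were alternatives. Where a group was below background, the fold is a bound against the lowest signal well above background of each array. The bound depends on the background correction, and with normexp the members with a bound differed by less than it. Levels are not compared between probes. Scripts used Python 3.11.15 and were tested on simulated data.

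Members and lists were chosen with earlier results of these data known. Members named by rule were those within 5 Mb, the 5 largest measured differences in each direction, the highest bounds, genes with several probes, the ends of the window, those nearest 2-fold and list genes. Others (Atp6v0b, Olfr1330, Nfyc, Oxct2b and Dnali1) were chosen after their values were seen, as were the roles. Promoters were from RefSeq. The values of 1 member and 1 marker gene are not reported here.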

Additional observations from a re-analysis of the deposited data

How the results depend on the processing

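All 543 values of single members under the alternatives kept their direction. Of the 512 with a test, 439 stayed on the same side of an adjusted p of 0.05 (limma, or the methods' t-test), 68 lost it and 5 gained it, and the 31 within slide row 1 had no test. Dnali1, Gm1661 and Olfr1330 each lost it under 9 alternatives, Eps15 under 7, Tekt2 under 6, Gm12886 and Hmgb4 under 4 and the others under at most 1, and Eqtn gained it under 5. With the slide row as a block, 3 members were lower and 0 higher at that threshold (27 lost it), beside 144 and 139 of all probes. WT replicates 2 and 3 have no HuD-KO array in their row, so this fit sets HuD-KO against WT replicate 1. The replicate numbers, which do not pair the samples (correlations of same-numbered deviations -0.03, -0.06 and -0.13), entered as a replicate block gave 3533 lower and 2995 higher probes at that threshold, against 6889 and 7651, and 6 members lost it. With normexp background correction, 12 members were over 2-fold lower and 4 higher, the medians were -0.81 within 10 Mb and -0.94 beyond, and 1068 probes were over 2-fold lower and 324 higher. With a filter on all 6 arrays, the median within 10 Mb was -1.30 over 13 members and that beyond -1.21. Without the corner, the median beyond 10 Mb was -1.03. With a limit of 5 Mb, the medians were -1.26 within and -1.53 beyond. Counts past 2-fold were 6 lower and 0 higher within 5 Mb, 15 and 4 within 10 Mb and 18 and 5 within 15 Mb. Leaving out 1 array at a time moved the median within 10 Mb between -1.68 and -1.40 (the latter without WT replicate 2), and the numbers of all probes at an adjusted p under 0.05 between 3607 and 6579 lower and between 3440 and 7039 higher. Each HuD-KO array and WT replicate 1 moved them most, and the lowest came without WT replicate 1 for lower probes and without HuD-KO replicate 1 for higher ones. The cause was not tested for any of these. Signal over background limits 7 members, which at least 1 HuD-KO array did not measure.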
